A study of Mus musculus with 30 samples.

Results

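The B cell genes described here are 33 genes that mark B lymphocytes, taken by symbol from the 54532 Ensembl genes counted in platelets and in peripheral blood mononuclear cells (PBMCs) of mice given B16F10 melanoma cells or salt solution alone. The list was taken by gene name, all 33 symbols matched 1 Ensembl identifier each, and all 33 had counts in each of the 30 libraries. By role they are 6 chains and co-receptors of the B cell receptor, 8 other surface proteins, 2 proteins of the endoplasmic reticulum, 9 signalling proteins, enzymes and channels, and 8 transcription factors. The list was compared between groups of mice within each tissue, and the platelet level of each gene was set against its PBMC level.

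B cells recognise antigen through a membrane immunoglobulin that signals through the paired chains CD79A and CD79B. Co-receptors such as CD22, Siglec-G and CD72 restrain that signal, complement receptor CD21 (Cr2) helps to raise it, and the cytoplasmic proteins BLK, BLNK and BANK1 carry it onward. The transcription factors EBF1 and PAX5 set up and hold the B cell programme, and octamer factors with their co-activator OBF-1 (Pou2af1), together with Ets factors such as SPIB, act on many B cell promoters. Platelets have no nucleus, carry RNA from megakaryocytes, and are known to take up RNA from outside, and a platelet pellet from blood can hold other blood cells.

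3 groups of young female C57BL/6 mice were compared, as 5 libraries per group and tissue. C group received 100 µl of HBSS (Hank's balanced salt solution) under the skin of the right flank, S group (suboptimal inoculation, labelled early tumor) received 2000 B16F10 cells, a melanoma line of the same strain, in that volume, and O group (optimal inoculation, labelled large tumor) received 100000 cells. Blood was drawn on day 14, when autopsy of S group showed no visible tumor. The paper states that the pools of S group also held mice that might never form a tumor. Each library is a pool of mice: 3 to 5 in O group, 4 or 5 in PBMCs of C and S groups, 5 or 10 in platelets of C group and, by the sample records, 10 in platelets of S group. No genotype or drug differed between groups. Platelets were pelleted from platelet-rich plasma with no step described to deplete white blood cells, and PBMCs came from the bottom layer of the same spin of the blood. The cell type field of the records reads PBMC for platelet libraries too, so tissue was taken from titles and source names. The P values below measure the spread between these pools.

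Total counts were 12259036 to 25360080 in platelet libraries and 13390983 to 15973449 in PBMC libraries, and levels are given as CPM (read counts scaled to a fixed library total) scaled by TMM (trimmed mean of M values) over all 30 libraries. The platelet and megakaryocyte list summed to 15056 to 82538 CPM in platelet libraries and to 537 to 6858 CPM in PBMC libraries and was higher in every platelet library than in any PBMC library. The 7 erythroid genes took 4.18% to 41.2% of the counts of a platelet library and 3.35% to 27.2% of a PBMC library. Platelet replicate 1 of O group (41.2% erythroid) and platelet replicate 5 of S group, the highest of its group for 22 of the 33 genes, stood apart for several genes, and platelet replicate 1 of C group for Cd37. PBMC replicate 3 of S group had 32900 genes with a count, beside 20540 to 22991 in the other PBMC libraries. Counts of members called are given with and without them, and single folds where leaving out 1 library moved them by over 1.5 times.

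In PBMCs the chains of the receptor led the list. Levels per kilobase used the merged exons of all transcripts of a gene, which can be longer than any 1 transcript. Merged exons are 13175 bases for Bcl11a and 9756 for Ebf1, beside longest coding transcripts of 5989 and 5981 bases. For Cd79a both are 1457 bases. On this scale the mean PBMC level over 15 libraries was 218 CPM per kb for Cd79a, 141 for Cd79b and 115 for Cd37, a tetraspanin of lymphocytes. It was 5.17 for Ebf1 and 4.82 for Bcl11a, a zinc finger factor, which were the lowest on this scale. By transcript length the order can differ. In platelets the mean was 141 CPM per kb for Cd79a and 96.96 for Cd79b, and Spib at 85.5 came next among genes other than Cd24a. Spib was at rank 8 in PBMCs and rank 4 in platelets, whereas Siglecg went from rank 12 to rank 27. In counts, the lowest value of any member was 72 in a PBMC library and 9 in a platelet library, the latter for Vpreb3 in replicate 1 of O group.

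The B cell genes did not keep their PBMC proportions in platelets. Of the 18 genes for membrane and secretory pathway proteins, 15 were lower in platelets than in PBMCs and 2 higher at an adjusted P under 0.05, and of the 15 genes for nuclear and cytosolic proteins 4 (Bach2, Blk, Pou2f2 and Bcl11a) were lower and 8 higher (edgeR's test, described below), beside 81.0% of all genes. With library totals alone 0 members were higher. Over all libraries the platelet level was 28.5% of the PBMC level for Siglecg, an inhibitory lectin, 37.8% for Cd22, another inhibitory lectin, and 42.2% for Fcer2a, the low-affinity IgE receptor CD23. At the other end it was 196% for Rasgrp3, an exchange factor for Ras, 184% for the transcription factor Mef2c and 175% for Spib. Cd24a, a surface glycoprotein that is also found on red cell precursors, was higher still at 279% and is described apart.

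The median was 77.3% over the 33 genes, beside 89.6% over the 16498 genes tested in both tissues. Both depend on scaling: with library totals alone the medians were 34.5% and 38.4%. The median was 55.8% over the 6 receptor chains and co-receptors, 69.3% over the 8 other surface proteins, 122% over the 8 transcription factors and 113% over the 9 signalling proteins, enzymes and channels. Of the 18 genes whose protein enters the membrane or the secretory pathway, 15 were under the median of all genes and 2 (Vpreb3 and Cd24a) were over 100%, and of the 15 whose protein stays in the nucleus or cytosol, 4 were under that median and 11 were over 100%. This division by place was drawn up after the values were seen and is a description. Relative to the median of all genes, the sign turned with no filter on low counts for Bach2, Blk, Pou2f2, Bcl11a, Cd38, Ly6d, Fcrla and Fcrl1, and with DESeq2 for Pax5, Swap70 and Blnk. The T cell list had a median of 38.1%, the NK cell list 47.8%, the monocyte list 18.9%, the plasmacytoid dendritic cell list 80.7% and the plasma cell list 53.4%.

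**Figure D1:**
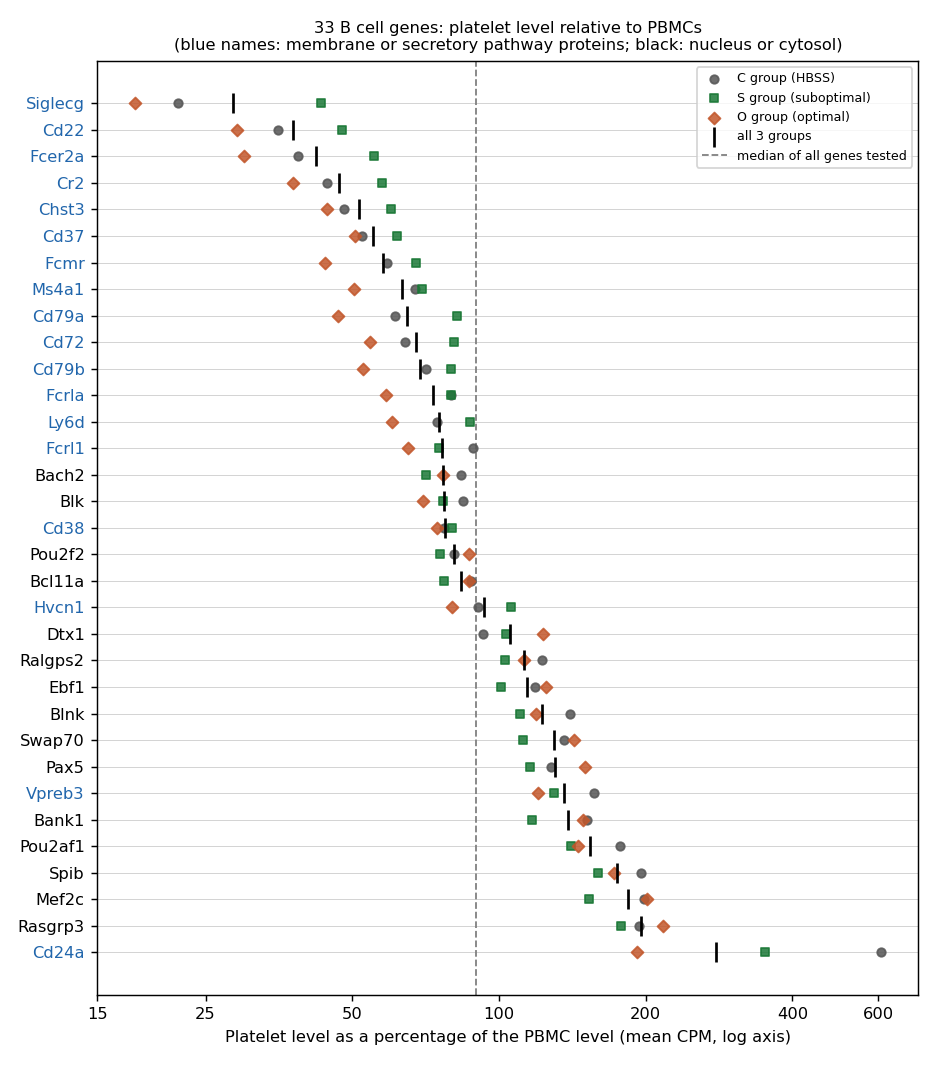
Platelet level of each of the 33 B cell genes as a percentage of its PBMC level (mean CPM of 5 libraries of a group, log axis), with points for C, S and O groups, a bar for all 3 groups, and a dashed line at the median of all genes tested, 89.6%. Siglecg at the top lies at 28.5% and Rasgrp3 near the bottom at 196%, and blue names, for membrane or secretory pathway proteins, fill the low end, with Hvcn1, Vpreb3 and Cd24a further to the right.

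Tested on the 30 libraries, with group in the model, 29 of the 33 genes differed between platelets and PBMCs at an adjusted P under 0.05 (edgeR's quasi-likelihood test, Benjamini-Hochberg), beside 81.0% of all genes tested, so a difference by itself is the rule here. Of the 29, 19 were lower and 10 higher in platelets. With library totals alone the split was 29 lower and 0 higher. The median log2 difference of all genes was -0.17 (-1.38 with library totals alone). Relative to that median, the log2 difference had a median of -0.48 over the 18 membrane or secretory genes (from -1.79 to 1.96) and 0.46 over the 15 nuclear or cytosolic genes (from -0.21 to 1.14). Dtx1, a regulator of Notch signalling, Ebf1, Hvcn1, the voltage-gated proton channel, and Ralgps2, an exchange factor for Ral, did not pass the threshold.

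Siglecg (ENSMUSG00000030468, GRCm38 chromosome 7, 43408204 to 43418358, + strand) was at 199, 169, 199.7, 158, 156 CPM in PBMCs of C group (replicates 1 to 5), 214, 176, 155, 235, 169.8 in S group and 121, 167, 141, 139, 207 in O group. Its platelet level stood at 59.9, 24.7, 32.3, 40.4, 36.4 CPM in C group, at 78.9, 39.3, 79.9, 51.1, 160.0 in S group and at 32.4, 11.9, 52.2, 7.79, 34.6 in O group. Platelet replicate 5 of S group alone came into the PBMC range, and replicates 2 and 4 of O group were the lowest of all. The log2 difference of platelets against PBMCs was -1.96 (SE 0.23, adjusted P = 4.8e-09 in edgeR's test).

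Cd22 (ENSMUSG00000030577, GRCm38 chromosome 7, 30865402 to 30880342, - strand) was at 268, 245, 312, 272, 235 CPM in PBMCs of C group, 267, 279, 259, 353, 279 in S group and 163, 243, 239, 245, 313 in O group. The platelet libraries were at 119, 72.5, 79.3, 98.7, 99.9 CPM in C group, at 126, 86.96, 125, 102, 243 in S group and at 61.3, 50.7, 109.5, 38.9, 88.3 in O group. Platelet replicate 5 of S group alone reached the PBMC range. The log2 difference was -1.45 (SE 0.15, adjusted P = 3.1e-10 in edgeR's test). Cd22 overlaps Gm29439 on the other strand, and since strand use in the counting is not given, reads of overlapping genes cannot be told apart. The same limit holds for 14 other members that overlap a gene on the other strand (Bach2, Bank1, Bcl11a, Cd37, Cd38, Cd72, Ebf1, Hvcn1, Ms4a1, Pax5, Pou2f2, Ralgps2, Swap70 and Vpreb3), and Chst3, Fcrla and Pou2af1 overlap a gene on their own strand.

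Fcer2a (ENSMUSG00000005540, GRCm38 chromosome 8, 3681737 to 3694175, - strand) was at 150.0, 119, 161, 90.2, 116 CPM in PBMCs of C group, 147, 158, 120.0, 142, 147 in S group and 100.0, 109.9, 106, 106, 169.9 in O group. In platelets it was at 62.9, 39.2, 40.6, 52.3, 50.4 CPM in C group, at 88.3, 48.5, 75.1, 51.1, 133 in S group and at 30.5, 27.6, 55.5, 21.3, 42.6 in O group. Here too only platelet replicate 5 of S group came into the PBMC range. The log2 difference was -1.32 (SE 0.15, adjusted P = 4.5e-09 in edgeR's test). Of the other surface and receptor genes, Cr2, Chst3 (a sulfotransferase of the Golgi), Cd37, Fcmr (the IgM Fc receptor) and Ms4a1 (CD20) were between 46.9% and 63.2% of the PBMC level, and Cd79a, Cd72, Cd79b, Fcrla, Ly6d, Fcrl1 and Cd38 between 64.7% and 77.3%.

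Rasgrp3 (ENSMUSG00000071042, GRCm38 chromosome 17, 75435896 to 75529054, + strand) was at 41.9, 36.4, 48.1, 33.8, 32.8 CPM in PBMCs of C group, 33.4, 42.6, 37.1, 41.8, 38.3 in S group and 24.7, 39.2, 34.6, 37.6, 40.3 in O group. Its platelet level stood at 61.9, 85.8, 46.1, 85.3, 94.5 CPM in C group, at 63.9, 60.99, 70.7, 77.5, 71.01 in S group and at 39.1, 94.2, 66.04, 100.5, 83.01 in O group. The platelet libraries were above the PBMC libraries except replicate 3 of C group and replicate 1 of O group, which fell inside their range. The log2 difference was 0.97 (SE 0.11, adjusted P = 3.5e-09 in edgeR's test). Mef2c (ENSMUSG00000005583, GRCm38 chromosome 13, 83504034 to 83667080, + strand) was at 85.3, 103, 129.8, 98.5, 97.3 CPM in PBMCs of C group, 77.7, 126, 112, 116, 104 in S group and 64.5, 117, 108, 81.96, 125 in O group. The platelet libraries were at 168, 261, 133, 209.9, 247 CPM in C group, at 155, 162, 144, 193, 165 in S group and at 83.9, 290.1, 173, 214, 238 in O group, with replicate 1 of O group alone among the PBMC values. The log2 difference was 0.87 (SE 0.13, adjusted P = 7.6e-07 in edgeR's test). Spib, Pou2af1, Bank1, Pax5, Swap70 (a protein of B cell migration) and Blnk lay between 123% and 175%, and Bach2, Blk, Pou2f2 (Oct-2) and Bcl11a between 76.9% and 83.6%. Hvcn1 was at 93.1%, Dtx1 at 105%, Ralgps2 at 113%, Ebf1 at 114% and Vpreb3 at 136%.

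By means, the master regulators Pax5 and Ebf1 had larger platelet shares than the receptor chains. The platelet level was 130% of the PBMC level for Pax5 and 114% for Ebf1, beside 64.7% for Cd79a and 68.8% for Cd79b. A difference between these pairs of genes was not tested. Pax5 (ENSMUSG00000014030, GRCm38 chromosome 4, 44524757 to 44710487, - strand) was at 219, 222, 278, 215, 215 CPM in PBMCs of C group, 179.8, 264, 224, 294, 238 in S group and 149.9, 210.4, 200.3, 209.9, 279 in O group. In platelets it was at 199.7, 347, 192, 351, 379 CPM in C group, at 287, 236, 188, 363, 312 in S group and at 96.98, 335, 314, 362, 467 in O group. The ranges overlapped, and platelet replicate 1 of O group was the lowest library of all. Ebf1 (ENSMUSG00000057098, GRCm38 chromosome 11, 44617317 to 45008091, + strand) was at 40.8, 51.6, 69.4, 50.9, 40.3 CPM in PBMCs of C group, 35.3, 55.5, 50.5, 78.3, 45.1 in S group and 24.6, 59.9, 51.1, 44.8, 58.7 in O group. Its platelet level stood at 36.6, 68.9, 39.5, 72.6, 82.3 CPM in C group, at 60.6, 49.5, 39.6, 64.04, 53.1 in S group and at 18.5, 70.2, 58.1, 61.1, 90.3 in O group, again overlapping. The log2 difference of platelets against PBMCs was 0.38 (SE 0.15, adjusted P = 0.022 in edgeR's test) for Pax5 and 0.19 (SE 0.17, adjusted P = 0.28 in edgeR's test) for Ebf1. With library totals alone Pax5 was at 57.8% of its PBMC level. Relative to the median of all genes its log2 difference was 0.55 in edgeR and -0.037 in DESeq2. In O group, where same-numbered pools of both tissues held the same number of mice, Pax5 in platelets was 64.7%, 159%, 157%, 173% and 168% of its PBMC level in pools 1 to 5, and Siglecg 26.8%, 7.15%, 37.02%, 5.59% and 16.7%. Siglecg is a co-receptor and was shown as the member with the lowest platelet share. That Pax5 lay above it was close to given by this choice. Of the receptor chains, Cd79a was at 49.7%, 37.1%, 66.3%, 39.4% and 43.7% in pools 1 to 5. Cd79b was at 40.2%, 49.3%, 78.6%, 49.7% and 48.1%. In each of the 5 pools the Pax5 share was above those of both chains, least so in pool 1.

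By group means, the order of the shares was not alike in both sets. In S group the platelet share of PBMCs was the highest of the 3 groups for 15 of the 18 membrane or secretory genes and for 0 of the 15 nuclear or cytosolic genes, of which 13 had their lowest share in S group. In O group it was the lowest for all 18 membrane or secretory genes. Siglecg stood at 21.98%, 43.04% and 17.9% in C, S and O groups, Cd79a at 61.04%, 82.1% and 46.7%, and Pax5 at 128%, 116% and 150.1%. These shares combine both tissues and are a description. In S group against O group, 7 of the 18 membrane or secretory genes passed edgeR's test of a difference between tissues (unadjusted P under 0.05). Of the 15 nuclear or cytosolic genes 0 did, beside 13.6% of all genes. In S group against C group and in O group against C group 0 genes of either set passed, beside 5.38% and 6.59% of all genes. The tests of each tissue follow.

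Promoter sequence was looked at for the members with a window in the tables used, whether or not they passed a test. RefSeq start windows (GRCm38.p6) were held for 27 of the 33 genes, and the 250 bases before the start are considered. These starts are not those of the gene spans given here: the start used lies 116 bases inside the span for Cd79a, 35 for Siglecg, 1314 for Cd22 and 9 for Rasgrp3. The windows shown are those of Cd79a, the member with the smallest P in platelets of S group against O group, of Siglecg and Cd22, the members with the lowest platelet share, and of Rasgrp3, the highest share apart from Cd24a. Capitals mark matches to the PU.1 core (GAGGAA, or TTCCTC on the other strand) or to the EBF core (CCCNNGGG, which reads the same on both strands).
Cd79a, chr7:24897247-24897496, + strand: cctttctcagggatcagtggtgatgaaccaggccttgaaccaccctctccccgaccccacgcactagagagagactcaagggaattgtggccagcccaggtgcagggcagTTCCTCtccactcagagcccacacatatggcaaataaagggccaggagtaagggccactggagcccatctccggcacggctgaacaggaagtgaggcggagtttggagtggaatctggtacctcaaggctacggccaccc
Siglecg, chr7:43407989-43408238, + strand: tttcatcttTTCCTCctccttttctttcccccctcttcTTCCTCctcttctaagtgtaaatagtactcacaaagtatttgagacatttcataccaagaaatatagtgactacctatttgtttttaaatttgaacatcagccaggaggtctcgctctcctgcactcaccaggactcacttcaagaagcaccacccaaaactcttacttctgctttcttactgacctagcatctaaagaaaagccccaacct
Cd22, chr7:30879029-30879278, - strand: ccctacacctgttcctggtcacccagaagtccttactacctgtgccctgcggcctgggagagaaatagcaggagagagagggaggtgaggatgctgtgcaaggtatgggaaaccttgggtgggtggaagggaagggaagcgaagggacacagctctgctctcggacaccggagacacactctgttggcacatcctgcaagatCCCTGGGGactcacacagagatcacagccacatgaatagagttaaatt
Rasgrp3, chr17:75435655-75435904, + strand: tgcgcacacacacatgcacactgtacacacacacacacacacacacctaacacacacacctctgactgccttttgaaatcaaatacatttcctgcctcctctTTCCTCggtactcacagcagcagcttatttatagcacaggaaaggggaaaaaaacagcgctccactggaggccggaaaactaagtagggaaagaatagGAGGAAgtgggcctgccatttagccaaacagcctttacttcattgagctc

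The PU.1 core was in a window of 14 of the 27 genes, and of all 32851 windows of this length 23.3% held it. A member with several starts had each of its windows searched (6 genes), which raises its chance of a match. The EBF core was in 4 genes (Bank1, Cd22, Chst3, Spib), beside 11.8% of all windows. The octamer ATGCAAAT was in Blnk and Vpreb3, beside 1.60% of all windows. Of the 13 membrane or secretory genes with a window 8 held the PU.1 core, Siglecg and Cd79a among them. In Rasgrp3 it stood at 148 to 143 and 50 to 45 bases before the start. Siglecg and Rasgrp3 each had a further window, not shown, without a match to any of these motifs.

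In PBMCs few of the B cell genes passed a test between the groups with all libraries in. The count depended on single libraries (2 to 17 in S group against O group with 1 library left out), as given below. Of the 33, 1 passed an unadjusted P of 0.05 in S group against C group, 1 in O group against C group and 3 in S group against O group, beside 2.64%, 11.9% and 12.2% of all genes tested, and 0 passed the adjusted threshold (edgeR's quasi-likelihood test with Benjamini-Hochberg adjustment, given as adjusted P throughout; 0 by DESeq2 also). The median log2 fold change over the members was 0.11, -0.08 and 0.17 in these comparisons, and 0.01, 0.00 and -0.00 over all genes. The signs leaned one way, with 32 of 33 positive in S group against C group, 30 of 33 negative in O group against C group and 32 of 33 positive in S group against O group, which are comparisons that share their groups. In S group against O group of PBMCs, 13 of 14 T cell genes and 7 of 7 NK cell genes also rose. There 7 of 7 erythroid genes and 3 of 9 neutrophil genes fell. The part of these cells in the result was not tested.

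Cd79a (ENSMUSG00000003379, GRCm38 chromosome 7, 24897381 to 24902197, + strand) was at 323, 322, 356, 267, 268 CPM in PBMCs of C group, 398, 359, 297, 427, 320.1 in S group and 213, 303, 266, 254, 391 in O group. Its partner Cd79b (ENSMUSG00000040592, GRCm38 chromosome 11, 106311341 to 106314762, - strand) was at 237, 205, 219, 172, 175, 273, 209, 172, 284, 206 and 150.0, 167, 150.1, 155, 249 CPM. The ranges of all 3 groups overlapped for both chains, and replicate 5 of O group was above the other O group pools. S group did not pass against O group for Cd79a (log2 fold change 0.28, SE 0.15, adjusted P = 0.468) or Cd79b (log2 fold change 0.33, SE 0.17, adjusted P = 0.449). Ms4a1 (ENSMUSG00000024673, GRCm38 chromosome 19, 11249675 to 11266241, - strand), the gene of CD20, was at 161, 160.0, 180.2, 126, 154 CPM in C group, 179.8, 167, 152, 233, 151 in S group and 115, 126, 122, 124, 193 in O group, again with replicate 5 of O group above the rest of its group (log2 fold change 0.32, SE 0.16, adjusted P = 0.440 for S group against O group).

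Fcmr (ENSMUSG00000042474, GRCm38 chromosome 1, 130865669 to 130880791, + strand) had the smallest P in S group against C group of PBMCs. It was at 166, 153, 132, 168, 142 CPM in S group, 134, 123, 154, 115, 119.6 in C group and 81.6, 110.4, 110.4, 103, 156 in O group. Apart from replicate 5, the O group pools were below all S group pools, and S and C groups overlapped. S group passed against C group (log2 fold change 0.24, SE 0.10, adjusted P = 1.00) and against O group (log2 fold change 0.38, SE 0.14, adjusted P = 0.341). The former call was lost in 6 of 10 fits that left out 1 library and in the joint fit of 3 groups. Vpreb3 (ENSMUSG00000000903, GRCm38 chromosome 10, 75943057 to 75949657, + strand), a protein of the endoplasmic reticulum known from B cell precursors, was at 11.9, 8.67, 6.31, 15.1, 8.68 CPM in S group, 8.82, 8.51, 8.74, 5.98, 7.48 in C group and 5.51, 5.79, 4.90, 6.01, 9.48 in O group, and rose in S group against O group (log2 fold change 0.61, SE 0.24, adjusted P = 0.367), where the groups overlapped and the call was lost in 5 of 10 fits that left out 1 library.

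Replicate 5 of O group was the highest O group pool for 30 of the 33 genes in PBMCs and replicate 1 the lowest for 30. Without replicate 5 the count of genes past P of 0.05 was 17 in S group against O group (16 higher) and 9 in O group against C group (1 higher, Cd24a). Without replicate 3 of S group the former was 8, and without replicate 4 of O group the latter was 2. The count in S group against C group was 0 without any 1 of 6 libraries (C group replicates 2, 4 and 5, S group replicates 1, 2 and 4), 2 without C group replicate 1, 5 without C group replicate 3 and 3 without S group replicate 3. In S against C groups the same replicate numbers deviated together, and with the replicate number as a block 2 genes passed. In bulk RNA, fewer B cells and less RNA per B cell cannot be told apart.

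In platelets the receptor and surface genes of B cells stood higher in S group than in O group while the transcription factors did not. Of the 33 genes, 15 rose at an unadjusted P under 0.05 and 0 fell, beside 13.9% of all genes tested in either direction and 7.23% higher. All 6 receptor chains and co-receptors rose (log2 fold changes 0.83 to 1.60), as did 5 of 8 other surface proteins (Fcer2a, Fcmr, Ly6d, Ms4a1, Cd37), both proteins of the endoplasmic reticulum (Fcrla, Vpreb3) and 2 of 9 signalling proteins, enzymes and channels (Hvcn1 and Chst3, which both sit in membranes). Of the 8 transcription factors 0 passed, with log2 fold changes from -0.20 to 0.36. By place, 15 of 18 membrane or secretory genes rose and 0 of 15 nuclear or cytosolic genes, with medians of 0.88 and 0.10 beside -0.01 over all genes. None passed the adjusted threshold in edgeR's quasi-likelihood test (Benjamini-Hochberg adjusted P from 0.225 to 0.337 over the 15), while 6 did in DESeq2.

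Cd79a was at 351, 216, 334, 196, 382 CPM in platelets of S group (replicates 1 to 5), 229, 170.4, 191, 169, 177 in C group and 106, 112, 177, 99.9, 171 in O group. All 5 pools of S group were above all 5 of O group, and C group lay between, overlapping both. The level was 2.31-fold higher in S group than in O group (log2 fold change 1.21, SE 0.27, adjusted P = 0.225). Cd79b was at 187, 143, 194, 128, 257 CPM in S group, 147, 130.3, 174, 129.7, 133 in C group and 60.3, 82.4, 118, 76.9, 119.9 in O group, with S group above O group in every pool (log2 fold change 1.06, SE 0.26, adjusted P = 0.225).

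Fcmr was at 117, 77.6, 111, 74.7, 134 CPM in S group, 95.5, 58.9, 78.2, 74.7, 73.4 in C group and 39.9, 46.1, 70.2, 32.3, 58.5 in O group, and S and O groups did not overlap (log2 fold change 1.12, SE 0.26, adjusted P = 0.225). Ly6d (ENSMUSG00000034634, GRCm38 chromosome 15, 74762056 to 74763620, - strand), a lipid-anchored protein of committed B cell precursors, was at 80.9, 61.8, 82.4, 53.2, 98.7 CPM in S group, 54.8, 54.1, 75.4, 48.8, 47.4 in C group and 17.7, 37.03, 50.3, 38.6, 49.6 in O group, with no overlap of S and O groups (log2 fold change 1.03, SE 0.27, adjusted P = 0.225). Hvcn1 (ENSMUSG00000064267, GRCm38 chromosome 5, 122206804 to 122242297, + strand) was at 45.5, 42.7, 53.2, 41.5, 63.1 CPM in S group, 36.02, 33.2, 40.8, 40.2, 30.04 in C group and 20.2, 21.8, 32.6, 32.6, 38.3 in O group, and S group was above both other groups in every pool (log2 fold change 0.82, SE 0.22, adjusted P = 0.225). Groups did not overlap for these 5 genes, Cd79a, Cd79b, Fcmr, Ly6d and Hvcn1, beside 1.50% of all genes tested that were higher without overlap.

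The largest fold among the 15 belonged to Siglecg (log2 fold change 1.60, SE 0.53, adjusted P = 0.279), whose S group pools ranged from 39.3 to 160.0 CPM and O group pools from 7.79 to 52.2 CPM. The smallest was that of Cd37 (log2 fold change 0.54, SE 0.21, adjusted P = 0.311). The other genes past the threshold were Cd72, Fcrla, Fcer2a, Cd22, Ms4a1, Chst3, Vpreb3 and Cr2, with log2 fold changes from 0.83 (Fcrla) to 1.21 (Fcer2a). Without replicate 5 of S group Cr2 went from 0.83 to 0.35 and Chst3 from 0.83 to 0.50, both no longer past the threshold, and Ms4a1 from 0.90 to 0.59. Leaving out 1 library lost the calls of Vpreb3 and Cd37 in 5 of 10 fits each, Chst3 in 4 and Cr2 in 3. Of the 3 membrane or secretory genes that did not pass, Fcrl1 was at 0.49, Cd38 (an ectoenzyme that breaks down NAD) at 0.39 and Cd24a at -1.06. Among the nuclear or cytosolic genes Spib at 0.36 was the highest and Mef2c at -0.20 the lowest.

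**Figure D2:**
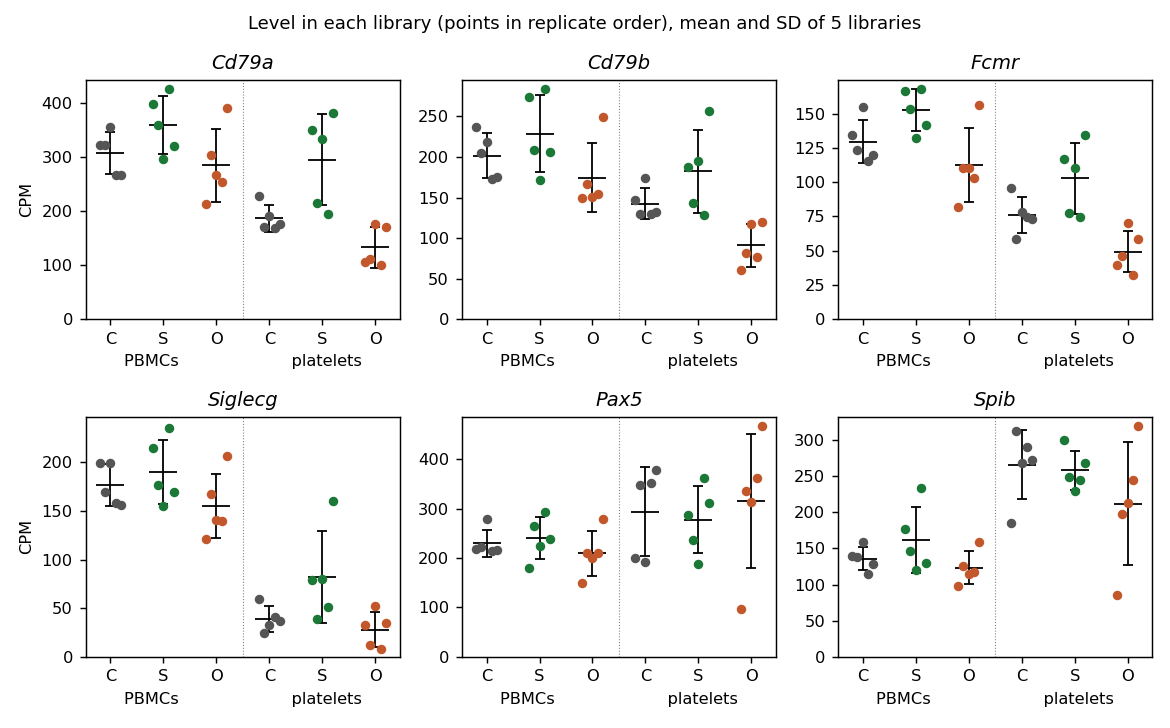
Level of 6 B cell genes in each library (points, in replicate order) with the mean and SD of 5 libraries, in CPM from 0, for C, S and O groups of PBMCs (left) and platelets (right). In platelets Cd79a, Cd79b and Fcmr have all S group points above all O group points, Siglecg has replicate 5 of S group at 160 CPM, and Pax5 and Spib overlap in all 3 groups.

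Without both replicate 5 of S group and replicate 1 of O group, 11 genes passed in platelets: Cd79a, Cd79b, Cd72, Siglecg, Fcer2a, Fcmr, Ly6d, Hvcn1, Fcrla and Vpreb3 higher and Mef2c lower. Leaving out each library in turn left 11 to 17 genes. Lists of other blood cells, lymphoid and myeloid, moved too in S group against O group, beside 13.9% of all genes that passed. There 11 of 14 T cell genes, 4 of 7 NK cell genes and 3 of 9 monocyte and macrophage genes rose. In the other direction 6 of 9 neutrophil genes fell, and 1 of 7 erythroid genes did, near the share of all genes. The T cell list summed to 675 to 817 CPM in S group, 609.9 to 730.5 in C group and 361 to 735 in O group, and none of its 14 genes was at 0 in platelets. The part of other blood cells in the result was not tested.

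Against C group the same kind of gene rose in S group. Of the 33 genes, 8 rose at an unadjusted P under 0.05 and 0 fell, beside 6.42% of all genes in either direction and 4.29% higher, and all 8 are membrane genes: Siglecg, Cd79a, Cd72, Hvcn1, Fcer2a, Fcmr, Ly6d and Cd22. The call of Cd22 (log2 fold change 0.59) was lost in 7 of 10 fits that left out 1 library, at 0.24 without replicate 5 of S group, and with RLE factors, voom and the joint fit of 3 groups. The median log2 fold change was 0.46 over the 18 membrane or secretory genes, -0.13 over the 15 nuclear or cytosolic genes and -0.01 over all genes. The adjusted P was 0.746 to 0.769 for the 8 (edgeR's quasi-likelihood test, Benjamini-Hochberg; none passed by DESeq2). Siglecg, with the values given above, had the smallest P (log2 fold change 1.13, SE 0.35, adjusted P = 0.746), with 0.69 without replicate 5 of S group, and S and C groups overlapped. Cd79a also rose (log2 fold change 0.70, SE 0.22, adjusted P = 0.746), with replicates 2 and 4 of S group inside the C group range.

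Cd72 (ENSMUSG00000028459, GRCm38 chromosome 4, 43446462 to 43454628, - strand) was at 43.2, 36.4, 42.03, 31.9, 57.7 CPM in S group, 29.3, 32.97, 29.5, 29.7, 31.2 in C group and 13.5, 20.4, 32.3, 16.98, 28.2 in O group, and only replicate 4 of S group fell within the C group range (log2 fold change 0.51, SE 0.17, adjusted P = 0.746). Hvcn1 was above C group in every pool (log2 fold change 0.48, SE 0.17, adjusted P = 0.746) and was the 1 member without overlap here, beside 0.550% of all genes. Fcer2a, whose S group pools 2 and 4 lay inside the C group range, also rose (log2 fold change 0.74, SE 0.27, adjusted P = 0.746), at 0.43 and no longer past the threshold without replicate 5 of S group. Other cell lists moved the same way, with 5 of 14 T cell genes and 2 of 7 NK cell genes higher (13 and 7 positive). Their part in the result was not tested. Without replicate 5 of S group 4 genes passed, and without it and replicate 1 of C group 5 did (Cd79a, Cd72, Siglecg, Fcer2a and Fcmr). The count was also 5 without replicate 4 of C group or replicate 1 of S group.

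In O group against C group the direction was the opposite. Of the 33 genes, 8 fell and 0 rose at an unadjusted P under 0.05, beside 4.79% of all genes in either direction and 2.17% lower: Fcrla, Cd79b, Fcmr, Ms4a1, Cd79a, Fcrl1, Ly6d and Cd72, which again are membrane or secretory genes. The median log2 fold change was -0.51 over the 18 membrane or secretory genes, -0.13 over the 15 others and -0.01 over all genes. Adjusted P was 0.910 for each of the 8 (edgeR's quasi-likelihood test, Benjamini-Hochberg), and 0 passed by DESeq2. The 3 comparisons share their groups and are not independent: 4 genes (Cd79a, Fcmr, Ly6d, Cd72) passed in all 3, of which leaving out each of 10 libraries lost the call of Cd72 in 8, Ly6d in 6 and Cd79a in 5 fits of O group against C group, and of Ly6d in 7 and Fcmr in 6 fits of S group against C group. In O group against C group DESeq2 and RLE factors also lost Cd72 and voom lost Cd79a and Ly6d, and in S group against C group the joint fit lost Ly6d and Fcmr. The mean was in the order S, C, O in 16 of the 18 membrane or secretory genes and in 0 of the 15 others.

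Fcrla (ENSMUSG00000038421, GRCm38 chromosome 1, 170917576 to 170927583, - strand), an Fc receptor relative that stays inside the cell, was at 17.9, 30.1, 38.2, 28.3, 43.5 CPM in platelets of O group, beside 43.95, 44.99, 50.2, 54.9, 48.3 in C group and 55.5, 50.05, 54.5, 42.7, 65.97 in S group. O group was below C group in every pool, though replicate 5 came within 1 CPM of it (log2 fold change -0.67, SE 0.21, adjusted P = 0.910). Cd79b was also below C group in every pool (log2 fold change -0.70, SE 0.22, adjusted P = 0.910), beside 0.271% of all genes tested that were lower without overlap, and Fcmr (log2 fold change -0.67, SE 0.23, adjusted P = 0.910) overlapped in 1 pool of O group. Ms4a1 was at 48.01, 54.8, 91.8, 50.7, 97.4 CPM in O group, beside 105, 97.6, 108, 96.2, 119 in C group and 108, 92.2, 109, 84.04, 221 in S group, with 1 pool of O group inside the C group range (log2 fold change -0.67, SE 0.23, adjusted P = 0.910). Cd79a fell as well (log2 fold change -0.54, SE 0.22, adjusted P = 0.910), and 2 O group pools lay inside the C group range. Beside these, 5 of 14 T cell genes and 1 of 7 NK cell genes fell, and 4 of 9 neutrophil genes rose (median log2 fold change 2.09 over the 9). Their part in the result was not tested. Without replicate 1 of both groups 3 genes passed (Cd79b, Fcrla and Vpreb3), and without replicate 1, 2 or 4 of O group or replicate 3 of C group 5, 4, 5 and 4 did. With the replicate number as a block 14 genes passed.

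**Figure D3:**
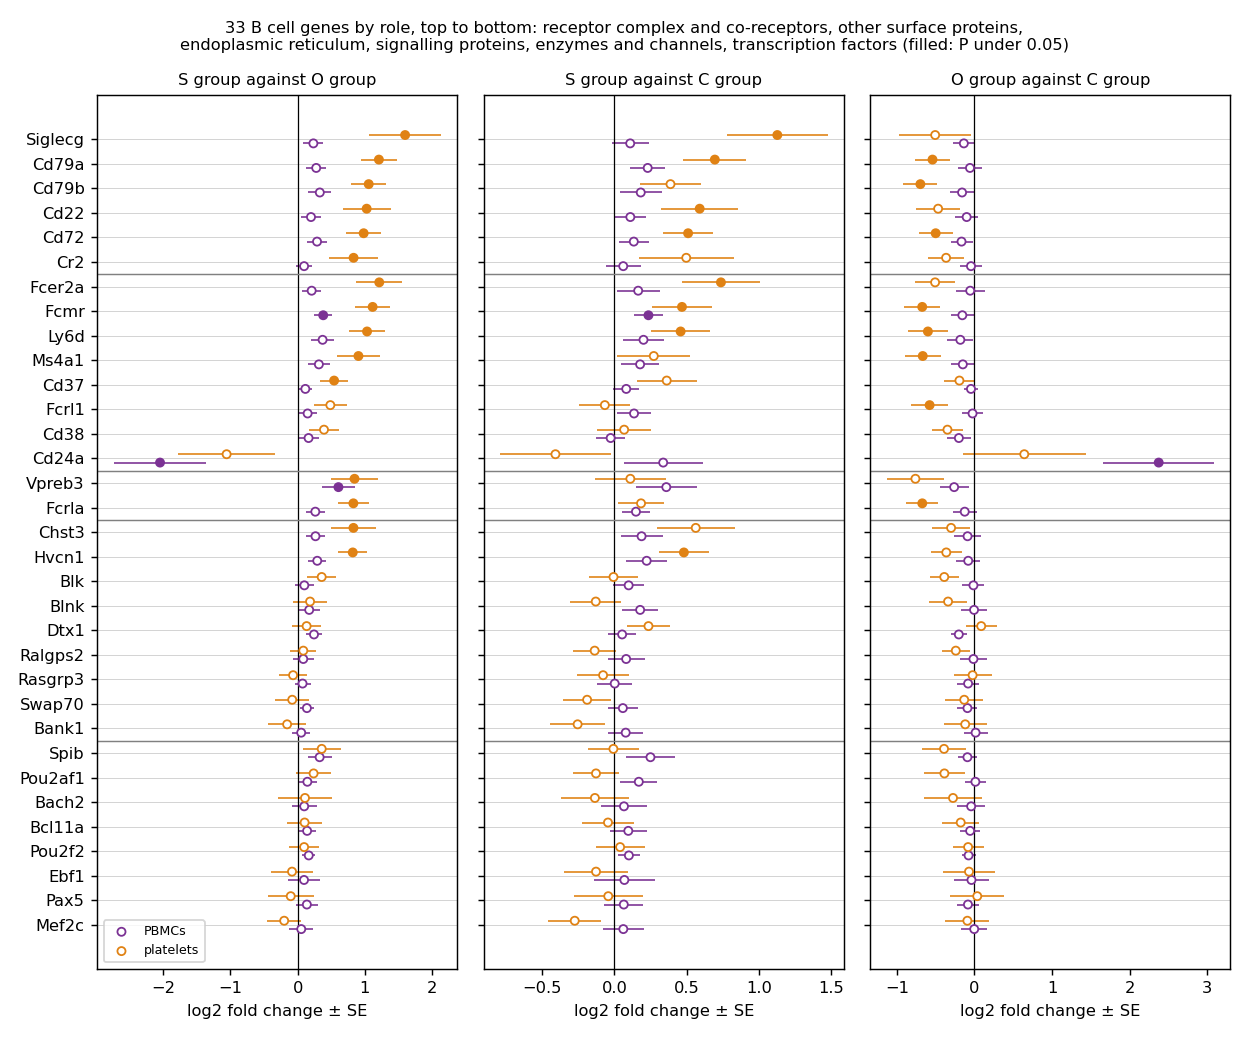
Log2 fold change with its standard error of the 33 B cell genes in PBMCs and platelets, for S against O, S against C and O against C groups, ordered by role, with filled points for P under 0.05. In platelets all 6 receptor genes at the top lie above 0.8 in S group against O group, while the 8 transcription factors at the bottom stay between -0.20 and 0.36, and in PBMCs every gene but Cd24a stays within 0.61 of 0.

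The change in platelets differed from that in PBMCs for some of these genes. In S group against O group, 7 of the 33 had an interaction of tissue and group at an unadjusted P under 0.05, beside 13.6% of all genes. All 7 were larger in platelets: Cd79a (log2 difference 0.82, SE 0.28, adjusted P = 0.228), Fcer2a (0.89, SE 0.35, adjusted P = 0.267), Siglecg (1.27, SE 0.50, adjusted P = 0.273), Fcmr (0.62, SE 0.27, adjusted P = 0.311), Cd72 (0.57, SE 0.26, adjusted P = 0.336), Cd79b (0.60, SE 0.28, adjusted P = 0.345) and Cd22 (0.72, SE 0.35, adjusted P = 0.357). The adjusted P was 0.228 to 0.357 (edgeR's quasi-likelihood test, Benjamini-Hochberg). In S group against C group and in O group against C group 0 genes passed, beside 5.38% and 6.59% of all genes (0 and 2 by DESeq2). Leaving out 1 library moved the 7 to between 1 (platelet replicate 5 of S group) and 14 (platelet replicate 5 of O group). It was 3 or 4 without PBMC replicate 5 of O group, PBMC replicates 2, 3 or 5 of S group, platelet replicates 2 or 4 of O group or platelet replicate 1 of S group, and 11 or 12 without platelet replicate 1 of O group or of C group.

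The ratio between both sets within a library does not depend on scaling. The 17 membrane or secretory genes other than Cd24a, summed, stood at 1.60, 1.48, 1.41, 1.45, 1.42 times the sum of the 15 nuclear or cytosolic genes in PBMCs of C group, 1.85, 1.42, 1.37, 1.54, 1.48 in S group and 1.55, 1.33, 1.33, 1.41, 1.51 in O group. In platelets the ratio was 0.917, 0.478, 0.723, 0.561, 0.528 in C group, 0.904, 0.731, 1.14, 0.591, 1.23 in S group and 0.874, 0.395, 0.624, 0.382, 0.436 in O group. All 15 platelet libraries lay below all 15 PBMC libraries, which holds only without Cd24a. With Cd24a in the sum the ratio was 1.45 to 3.08 in PBMCs and 0.513 to 5.30 in platelets, and 4 platelet libraries (replicate 1 of O group at 5.30, replicate 1 of C group at 1.68, replicates 5 and 3 of S group at 1.56 and 1.47) lay above the lowest PBMC library. Within platelets the groups overlapped. Replicate 1 was the highest of C group and of O group, and replicates 5 and 3 of S group were the highest of all.

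**Figure D4:**
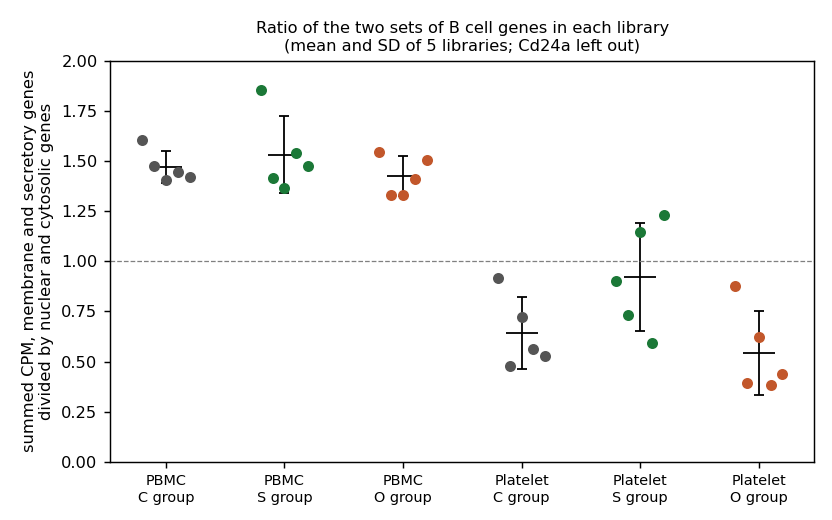
Summed CPM of 17 membrane or secretory B cell genes divided by that of 15 nuclear or cytosolic B cell genes in each of 30 libraries, with the mean and SD of 5 libraries; the dashed line marks a ratio of 1. PBMC libraries lie between 1.33 and 1.85 and platelet libraries between 0.382 and 1.23.

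The members of both sets also differ in their transcripts. By the longest protein-coding transcript in GENCODE M21, the 18 membrane or secretory genes had a median length of 2392 bases (729 to 6212) and a median GC content of 52.8%, and the 15 nuclear or cytosolic genes 4720 bases (2097 to 8882) and 48.9%. Across the 33 genes, which are not independent replicates and share their libraries, Spearman's rho of the platelet log2 fold change of S group against O group was -0.56 with length and 0.48 with GC content. Within the 18 membrane or secretory genes these were -0.27 and 0.31, and within the 15 others -0.50 and 0.67. The 15 genes that rose in platelets of S group against O group had a median length of 2541 bases, and the 18 that did not pass 4031 bases. The part of transcript length and GC content in the result was not tested.

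Other genes of B cell receptor signalling, 26 genes that are not members, were also counted in platelets. In S group against O group 4 rose and 0 fell, and these 4, Cxcr5, Cd40 and Fcgr2b among them, belong to its 8 membrane genes, of which the other 4 (Tnfrsf13c, Cd81, Cd180 and Tnfrsf13b) did not pass, and 0 of its 18 nuclear or cytosolic genes passed. Over all genes 13.9% passed. The same 4 rose in S group against C group, beside 6.42% of all genes. Cxcr5, the receptor for the follicle chemokine CXCL13, averaged 49.1 ± 14.1 CPM in S group, 26.1 ± 4.41 in C group and 24.5 ± 6.83 in O group (SD, n = 5), with log2 fold change 1.06, SE 0.26, adjusted P = 0.225 against O group and log2 fold change 0.95, SE 0.21, adjusted P = 0.746 against C group. Cd40, the receptor for T cell help, averaged 13.4 ± 5.25, 7.99 ± 0.849 and 7.74 ± 2.89 CPM in S, C and O groups (log2 fold change 0.85, SE 0.35, adjusted P = 0.325, and log2 fold change 0.79, SE 0.26, adjusted P = 0.746). In O group against C group 0 of the 26 passed.

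In PBMCs 4 of the 26 genes rose in O group against C group, near the 11.9% of all genes that passed. They were kinases and their partners, Dapp1 (log2 fold change 0.25, SE 0.09, adjusted P = 0.355), Syk (log2 fold change 0.27, SE 0.10, adjusted P = 0.368), Plcg2 (log2 fold change 0.18, SE 0.07, adjusted P = 0.381) and Lyn, which are also used by myeloid cells. In S group against O group 2 of the 26 passed, beside 12.2% of all genes. Lyn fell (log2 fold change -0.21, SE 0.08, adjusted P = 0.344) and 1 other nuclear or cytosolic gene rose. In S group against C group 0 passed. Beside these signalling genes, the neutrophil list had 0 of 9 genes past the threshold in O group against C group with a median log2 fold change of 1.23, and 12 of 14 T cell genes fell. Against PBMCs, the platelet level of the list had a median of 57.4% over its 8 membrane genes and 114% over the 18 others. Of those 8 membrane genes 5 were lower and 3 (Cd81, Tnfrsf13b and Tnfrsf13c) higher in platelets at an adjusted P under 0.05 (edgeR's quasi-likelihood test).

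Cd24a (ENSMUSG00000047139, GRCm38 chromosome 10, 43578284 to 43584265, + strand) went its own way. In PBMCs it was at 175, 85.2, 135, 73.7, 83.6 CPM in C group, 209, 138, 156, 109.9, 89.7 in S group and 1618, 222, 166, 553, 116 in O group, where replicates 1 and 4 were far above the others and replicates 3 and 5 lay inside the C group range. It rose in O group against C group (log2 fold change 2.38, SE 0.71, adjusted P = 0.337) and fell in S group against O group (log2 fold change -2.05, SE 0.69, adjusted P = 0.319). Leaving out 1 library left log2 fold changes of 1.31 to 2.64 and -2.31 to -0.97 (1.31 and -0.97 without replicate 1 of O group), all past the threshold, while with limma's voom and sample weights the fall in S group against O group did not pass. The platelet libraries were at 1225, 209, 365, 699.9, 865, 426, 532, 485, 362, 663 and 3678, 248, 566, 279.5, 366 CPM in C, S and O groups, without a difference that passed.

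Beside these values, the erythroid share of counts in PBMCs was 3.38 to 9.78% in C group, 3.35 to 8.96% in S group and 6.76 to 27.2% in O group, and all 7 erythroid genes rose in O group against C group. The PBMC library and the platelet library with the most Cd24a, replicate 1 of O group in each, were those with the largest erythroid share of their tissue. In O group the neutrophil list was high in the same libraries: it summed to 3770 and 2747 CPM in PBMC replicates 1 and 4 of O group, to 235 to 508 CPM in the other O group pools, and to 4939 CPM in platelet replicate 1 of O group, the highest of all libraries. In the other groups of PBMCs it was not so. Replicate 4 had the highest neutrophil sum of C group (1398 CPM) with the lowest Cd24a (73.7 CPM). Replicate 4 of S group had the highest sum (1870 CPM) with Cd24a at 109.9 CPM. Nor did Cd24a follow the erythroid share in these groups of PBMCs. In C group, replicate 1 had the most Cd24a (175 CPM) with the lowest erythroid share (3.38%), and replicate 3 had 135 CPM with the largest (9.78%). In S group, replicate 1 had the most Cd24a (209 CPM) at 5.26%, and replicate 3 had 156 CPM with the largest share (8.96%). The part of red cell precursors and of neutrophils in the Cd24a values was not tested.

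**Figure D5:**
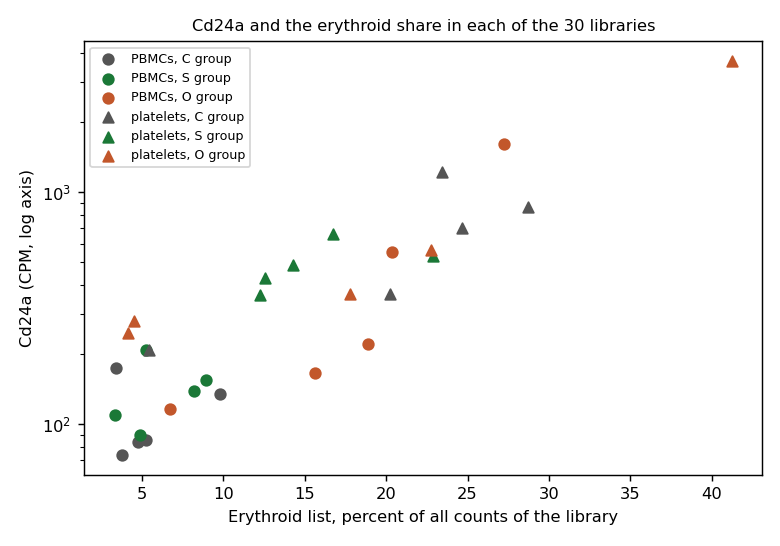
Cd24a level (CPM, log axis) against the share of counts taken by 7 erythroid genes in each of the 30 libraries, by tissue and group. The highest point, replicate 1 of O group platelets, lies at 3678 CPM and 41.2%, and the highest PBMC point, replicate 1 of O group, at 1618 CPM and 27.2%.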

How the data were processed

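The authors deposited raw counts per Ensembl gene for platelet and PBMC libraries. The submitters' processing notes name HISAT2 2.0.5, featureCounts 1.5.0-p3, DESeq2 1.16.1 and the build mm9, and strand use in the counting is not given in the sources used here. Gene coordinates are GRCm38 (GENCODE M21), since 651 of 672 genes of a supplementary list had the same start and end there.

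From these counts, CPM scaled by TMM was computed for description. Groups were compared within a tissue by the quasi-likelihood test of edgeR 4.0.16 in R 4.3.3 on all genes passing filterByExpr, on the 10 libraries of both groups, with no covariate. Genes were called at an unadjusted P under 0.05, the threshold of the study's methods, with Benjamini-Hochberg adjusted values over all genes tested beside it. Platelets and PBMCs were compared in a fit of the 30 libraries that held group as a term, and differences between tissues as interaction contrasts.

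The members and all gene lists were chosen with earlier results of these data known. Every library's value was given for Cd79a, Cd79b, Ms4a1, Pax5 and Ebf1, for up to 5 members with the smallest P in each comparison, and for the 3 highest and 3 lowest platelet shares, while Vpreb3, Cd72 and others are named as members. Names beyond the 3 with the smallest P among signalling genes complete a count. Some signalling genes are counted in their list and are not reported singly here.

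Replicate numbers were checked for pairing: in PBMCs of C and S groups the deviations of same-numbered libraries correlated in all 5 pairs (r from 0.171 to 0.478, over genes), and in each other pair of groups at least 1 pair was at 0.1 or below. Alternatives were DESeq2 1.42.0, voom of limma 3.58.1 with sample weights, RLE factors, library totals, no filter, a replicate block, a joint fit and leaving out each library. On simulated counts for platelets of S group against O group, 75 of 95 genes changed by 1 on the log2 scale passed an unadjusted P under 0.05 and 15 the adjusted threshold, and 4.87% of unchanged genes passed the former. Promoter windows are from RefSeq (GRCm38.p6).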

Additional observations from a re-analysis of the deposited data

Results flagged for a closer look

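In 18 of 198 groups of 5 libraries, 1 library lay far from the other 4 for a B cell gene, where chance gives about 5% of groups. Platelet replicate 5 of S group was far above its group for Cd22 (243 CPM), Cr2 (61.7 CPM), Ms4a1 (221 CPM), Cd38 (51.5 CPM) and Chst3 (181 CPM), all membrane genes. PBMC replicate 5 of O group was far above for Cd79b (249 CPM), Ms4a1 (193 CPM), Fcer2a (169.9 CPM) and Vpreb3 (9.48 CPM). PBMC replicate 4 of S group was far above for Cd22 (353 CPM) and Fcrl1 (80.7 CPM), and PBMC replicate 3 of C group for Pax5 (278 CPM) and Bach2 (125 CPM). In platelets, replicate 1 of C group was far above for Cd37 (288 CPM) and replicate 3 of C group for Ly6d (75.4 CPM). Platelet replicate 1 of O group was far above for Cd24a (3678 CPM) and far below for Bank1 (58.2 CPM) and Ralgps2 (83.9 CPM).

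The difference of S group against O group was larger in platelets than in PBMCs for 7 genes in a test of that difference at an unadjusted P under 0.05, beside 13.6% of all genes tested. None passed after adjustment. Leaving out 1 library moved the 7 to between 1 and 14. The log2 differences between tissues were 0.82 for Cd79a, 0.89 for Fcer2a, 1.27 for Siglecg, 0.62 for Fcmr, 0.57 for Cd72, 0.60 for Cd79b and 0.72 for Cd22.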

How the results depend on the processing

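Within a tissue, no fold change of a called member reversed in the alternatives run. Of 255 refits of the 15 calls in platelets of S group against O group, 231 stayed past the threshold, as did 107 of 136 in S group against C group and 104 of 136 in O group against C group. In PBMCs these were 42 of 48, 9 of 16 and 16 of 16. Counts of members past P of 0.05 moved by over 1.5 times as follows, and the cause was not tested. In PBMCs, voom gave 2 in O group against C group, 3 in S group against C group and 7 in S group against O group, no filter gave 2 and 8 in the latter pair, and the joint fit of 3 groups 0 and 6. The replicate block gave 2 in PBMCs of S group against C group, where the numbers pair, and 5 in PBMCs of S group against O group, 14 in platelets of O group against C group and 1 for the interaction of O group against C group, where they share only a number; it moved no other count by that much. In platelets, voom gave 15 and the joint fit 5 in S group against C group, and leaving out 2 libraries together, chosen after seeing the data, 5 there and 3 in O group against C group. Interactions of O group against C group numbered 2 with RLE factors, no filter or DESeq2 and 3 as a difference of separate fits, those of S group against C group 1 with no filter or separate fits, and those of S group against O group 11 with no filter or DESeq2.

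Leaving out 1 library gave ranges of 1 to 9, 0 to 5 and 2 to 17 in PBMCs (O group against C group, S against C, S against O), 4 to 11, 4 to 10 and 11 to 17 in platelets, and 0 to 8 (8 without platelet replicate 5 of O group), 0 to 2 and 1 to 14 for the interactions. It gave 27 to 30 for platelets against PBMCs and 75.3% to 81.2% for the median share. Platelets against PBMCs called 12 members in S group alone and 16 in O group alone, with fewer samples, and the median share was 34.5% with library totals alone. Relative to the median of all genes, the tissue difference changed sign with no filter for Bcl11a (0.23), Pou2f2 (0.18), Blk (0.10), Cd38 (0.11), Ly6d (0.038), Fcrla (0.011), Bach2 (0.11) and Fcrl1 (0.084), with DESeq2 for Pax5 (-0.037), Swap70 (-0.041) and Blnk (-0.12), in S group alone for Ly6d (0.035) and in C group alone for Fcrl1 (5.8e-05), on the log2 scale. Depth limits Vpreb3 most, with 9 counts in its lowest platelet library.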

Other observations

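Genes of antibody-secreting plasma cells and of plasmacytoid dendritic cells, which share parts of the B cell programme, were also present in platelets. In platelets of S group against O group 2 of 5 plasma cell genes tested rose at an unadjusted P under 0.05, with a median log2 fold change of 0.07. Of 5 plasmacytoid dendritic cell genes 1 fell, with a median of -0.16.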
